A study of Oryza sativa with 36 samples.

Results

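N6-methyladenosine (m6A) was mapped in the mRNA of root and shoot of wild-type rice (Oryza sativa, ecotype Nipponbare), and the lists of peaks in genes were compared between the organs. m6A is the most common internal mark of mRNA in plants. A writer complex places it while the transcript is being made, reader proteins bind it, and demethylases of the AlkB family can remove it; in plants, as in animals, it is found mostly towards the 3′ end of transcripts and bears on their stability, processing and translation. In m6A-seq, fragmented RNA is pulled down with an antibody against m6A (IP), and a region where the IP exceeds the unselected RNA (input) is called a peak.

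The series also holds plants that carry FTO, the human m6A demethylase, and plants with the mutant form labelled FTOmut. The comparison here used 4 of the 12 gene peak lists: root replicates 1 and 2 against shoot replicates 1 and 2 of the untransformed wild type, 55737 peaks of 173073 in all. All plants were 15-day-old seedlings grown in hydroponic solution under 12 h of light at 26 °C and 12 h of darkness at 22 °C, and the labels do not say whether replicates came from separate plants or pools, so the spread between replicates may be technical. Peaks of equal strand that shared 1 bp or more outside their introns were joined into sites, which gave 18716 sites in 14995 genes. Each list had its own IP and input library. The lists carry no read counts, so the depth behind a peak is unknown. Gene models of the genome build were not used here, so no peak is assigned to a coding region, an intron or a UTR, and no sequence is shown.

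The organ labels matched the RNA-seq of the same genotype (2 libraries per organ, 13409607 and 15981949 gene counts in root, 12969871 and 13917057 in shoot). All 7 root markers, among them the silicon transporters Lsi1 and Lsi2 and the auxin carrier OsPIN2, were higher in root. All 7 green-tissue markers, among them the antenna protein gene Cab1R and the Rubisco activase gene OsRCA, were lower in root. Calls are at a Benjamini-Hochberg adjusted p under 0.05 in the edgeR quasi-likelihood test. Over all 23788 genes tested, 10% were called higher and 10.7% lower in root. The markers were picked from wider gene groups, which were less uniform. Of 11 silicon, metal and potassium transporters 4 were higher and 1 lower, and of 13 auxin genes 3 and 2. Of 14 iron genes 6 and 0 were so called, of 17 nitrogen genes 8 and 1, and of 17 photosynthesis genes 0 and 15. The summed green markers reached 115 and 129.9 CPM in root, against 14028 and 1946 CPM in shoot, so the shoot libraries differed widely from each other. CPM are counts scaled to the library total times its TMM normalization factor (1.37 and 1.36 in root, 0.647 and 0.827 in shoot). A pair of chromosome 9 loci took 3.19 and 2.31% of the gene counts in root, against 21.0 and 34.4% in shoot. RNA-seq was made from rRNA-depleted RNA and is not the input of the IP. In bulk organs, fewer cells of a type and less RNA per cell cannot be told apart.

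Most genes with a peak had one in both organs. Methylated here means that a peak was listed. Methylated in root or shoot alone means peaks in both lists of that organ and in neither of the other. A missing peak is not a missing mark. A peak was listed in 12337 and 12065 genes in the root lists and in 11514 and 12003 genes in the shoot lists, and 9245 genes (61.7% of those with any peak) had a peak in all 4. At the level of sites, 9546 (51%) were in all 4 lists, 1264 were in both root lists and neither shoot list (root-only sites, 6.75%), and 897 were in both shoot lists and neither root list (shoot-only sites, 4.79%). A further 4143 sites were seen in 1 list alone, more than the organ-only sites of both kinds together. Counted by gene, 793 (5.29%) had peaks in both root lists and no shoot list, and 612 (4.08%) had peaks in both shoot lists and no root list. With 2 lists against 2, an exact two-sided permutation test cannot give a p below 0.333, so these shares are described and not tested.

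Lists of the same organ resembled each other more than lists of different organs. Of the 14779 peaks of root replicate 1, 83.1% overlapped a peak of root replicate 2, against 72.3% and 76.2% for shoot replicates 1 and 2. Of the 14054 peaks of root replicate 2, 87.3% overlapped the other root list, against 77.3% and 81.3% for the shoot lists. Shoot replicate 1, with 12963 peaks, overlapped shoot replicate 2 at 89.7% and the root lists at 81.8% and 83.2%. Shoot replicate 2, with 13941 peaks, stood less apart, with 83.3% overlap with the other shoot list and 80.2% and 81.5% with the root lists.

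Organ-only peaks were weak and short beside the common ones. The median fold (IP over input, the authors' own value for each peak) of root-only peaks was 15 and 13.5 in the root lists, against 36.1 and 40.5 for peaks at sites of all 4 lists. Shoot-only peaks had medians of 13.5 and 15 in the shoot lists, against 33.5 and 36.5 at the common sites. Median lengths were 190 and 161 bp for root-only and 161 and 170 bp for shoot-only peaks, against 259 to 270 bp for common ones. Peaks seen in 1 list alone were weaker still, with a median fold of 10 in each list.

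**Figure D1:**
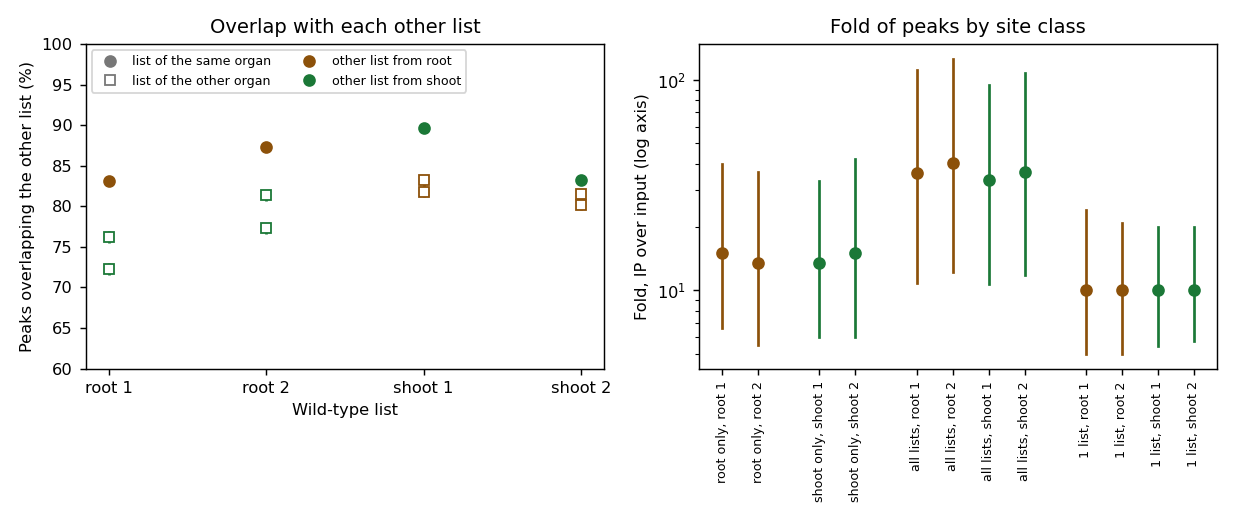
Left, share of the peaks of each wild-type list (x axis) that overlapped a peak of each other list (y axis, %; filled points, list of the same organ; open squares, list of the other organ; brown, other list from root; green, other list from shoot; 95% Wilson intervals are smaller than the points). Right, median fold (points, log axis) and its 10th to 90th percentile (lines) for peaks of each site class in each list; organ-only medians lie between 13.5 and 15, those of sites in all 4 lists between 33.5 and 40.5.

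The 8 lists of the transgenic plants, which the classes did not use, showed the same sites unevenly between organs. Root-only wild-type sites held a peak in 48.9 to 79.3% of cases in the 4 transgenic root lists and in 18.5 to 30.5% in the 4 transgenic shoot lists. Shoot-only sites did so in 36.2 to 46.9% in transgenic root and 67.7 to 75.9% in transgenic shoot. The 2 ranges did not overlap for either class, while sites of all 4 wild-type lists were found in 97.3 to 98.7% of cases in every transgenic list. The match was partial: 86 of the 1264 root-only sites were in all 4 transgenic root lists and no shoot list, and 73 of the 897 shoot-only sites were in all 4 transgenic shoot lists and no root list. No transgenic shoot list held a peak at 631 of the 1264 root-only sites, so the remaining ones had a shoot peak elsewhere in the series.

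Peaks were counted in 21 groups of genes for known processes, 262 genes in all, of which 138 had a peak in wild type. Of these, 6 were methylated in root alone (4.35%, beside 5.29% of all genes with a peak) and 8 in shoot alone (5.80%, beside 4.08%), so neither share stood far from that of all genes. A peak in any list was found in 14995 of all 55801 genes of the count table (26.9%), in 13787 of the 23788 genes tested in the RNA-seq (58.0%) and in 52.7% of the 262 group members. By group, 16 of 17 genes of RNA silencing and DNA methylation and 10 of 11 histone methylation genes had a peak, 10 and 8 of them in all 4 lists. All 3 genes listed for the m6A writer complex had peaks in all 4 lists. Group counts include genes whose symbol did not pass the name check described under processing. An accepted name was held by 9 of the 17, 4 of the 11 and 0 of the 3 genes of these groups. The lowest counts were 3 of 13 root formation genes, 3 of 11 silicon, metal and potassium transporters, 6 of 21 defence and phytoalexin genes, 4 of 13 auxin genes and 3 of 9 aquaporins. These shares, 23.1 to 33.3%, were below that of the genes tested in the RNA-seq and near that of all genes of the count table, and no group was tested against either.

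The cellulose and cell wall group held 2 of the 6 genes methylated in root alone. OsCESA1 (LOC_Os05g08370), a catalytic subunit of the cellulose synthase of primary walls, had 2 peaks in each root list and none in shoot. Coordinates here are those of replicate 1, in the build of the files. The peak at chr5:4571091-4571331, with the same bounds in both root lists, had a fold of 31 and 10.5, and the one at chr5:4565327-4565537 a fold of 5.45 and 6.19. Its RNA was at 406 and 368 CPM in root and 399.7 and 178 CPM in shoot, with a log2 difference of 0.06 ± 0.49 (SE; edgeR adjusted p = 0.944). Transgenic plants held the first peak in 4 of 4 root and 1 of 4 shoot lists, and the second in 4 of 4 root and 2 of 4 shoot lists. OsCESA7 (LOC_Os10g32980), a subunit for secondary walls, had 1 peak at chr10:17264699-17264968 with a fold of 10.8 and 7.67, which recurred in 1 of 4 transgenic root lists and in no transgenic shoot list. RNA of OsCESA7 was at 24.6 and 30.7 CPM in root and 53.5 and 33.0 CPM in shoot, so both genes lacked a shoot peak while their RNA was present there.

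Hormone signalling gave 2 more root-only genes. SLR1 (LOC_Os03g49990), the DELLA protein that represses gibberellin responses, had a root peak at chr3:28512864-28513094 with a fold of 32.5 and 14.8, and none in shoot. Its RNA was at 53.8 and 50.8 CPM in root and 66.5 and 66.3 CPM in shoot (log2 difference −0.73 ± 0.29 SE, edgeR adjusted p = 0.143), and the peak was in none of the 8 transgenic lists. OsBZR1 (LOC_Os07g39220), a transcription factor of brassinosteroid signalling, had a root peak at chr7:23485125-23485314 with a fold of 121 and 26, a wide spread for 2 lists of one organ. It was found in 2 of 4 transgenic root lists and in no transgenic shoot list. The histone H3 lysine demethylase gene JMJ705 (LOC_Os01g67970) had a root peak with a fold of 34 and 52 at chr1:39499865-39500045, and this one was also in 3 of 4 transgenic root and 2 of 4 transgenic shoot lists.

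OsDREB1A (LOC_Os09g35030), a transcription factor of the cold response, went the other way in its RNA. Its peak at chr9:20404064-20404203 had a fold of 52 and 44 in root and was absent from the shoot lists, while its RNA was at 2.23 and 3.31 CPM in root, against 26.6 and 40.4 CPM in shoot. The RNA fell by 3.99 on the log2 scale in root (SE 0.46, edgeR adjusted p = 0.0106). Without root replicate 1, that p was 0.0503. The peak recurred in 2 of 4 transgenic root lists and in no transgenic shoot list.

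Among shoot-only genes, the alcohol dehydrogenase gene OsADH1 (LOC_Os11g10480), which serves fermentation when oxygen is low, had the peak that recurred most evenly. Its peak at chr11:5712731-5712970 had a fold of 30 and 9 in shoot and was in none of the root lists of any genotype, and in all 4 transgenic shoot lists. RNA of OsADH1 was at 28.5 and 29.6 CPM in root and 52.5 and 122 CPM in shoot, with a log2 difference of −1.997 ± 0.52 (SE, edgeR adjusted p = 0.0559, and 0.0496 with RLE size factors). OsPIN10a (LOC_Os01g45550), an auxin efflux carrier, had a shoot peak at chr1:25868171-25868341 with a fold of 25 and 5, with RNA at 0.761 and 0.826 CPM in root, against 6.44 and 4.86 CPM in shoot. OsHsp101 (LOC_Os05g44340), a chaperone that dissolves protein aggregates after heat, had a shoot peak with a fold of 11 and 8 and hardly any RNA in either organ (0.544 and 1.06 CPM in root, 1.07 and 0.608 CPM in shoot).

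OsPORB (LOC_Os10g35370), an enzyme of chlorophyll synthesis, had a shoot peak with a fold of 5.08 and 7.58, and its RNA fell by 5.37 on the log2 scale in root (SE 0.62, edgeR adjusted p = 0.0106). The aquaporin gene OsPIP1;1 (LOC_Os02g44630), from a family of similar copies among which reads may be shared, had one with a fold of 3.65 and 6.28. Both peaks were in 3 of 4 transgenic root lists and 4 of 4 transgenic shoot lists, so outside wild type they were not confined to shoot. The remaining 3 genes of the groups that were methylated in shoot alone had no accepted name and are counted only.

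**Figure D2:**
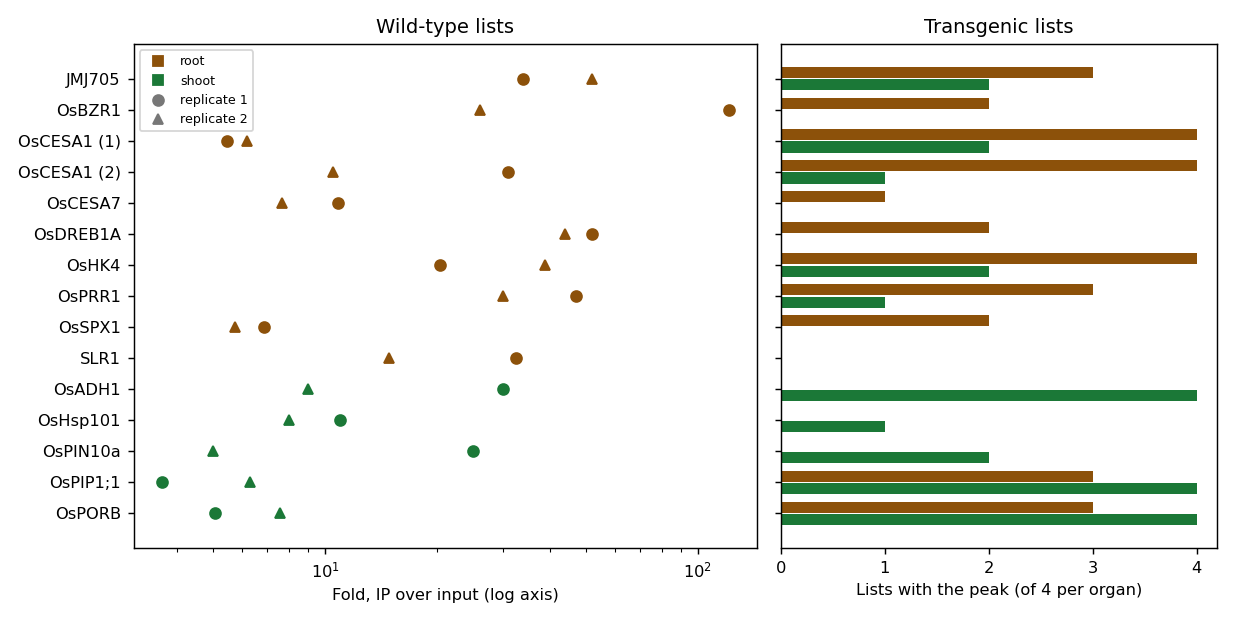
Organ-only sites of named genes: fold of IP over input in the 2 wild-type lists of the organ that held the peak (left, log axis; brown, root; green, shoot; circles, replicate 1; triangles, replicate 2) and the number of transgenic root and shoot lists, of 4 each, with a peak at the same site (right). OsADH1 has its peak in 4 of 4 shoot lists and 0 of 4 root lists, while OsPIP1;1 and OsPORB are found in both organs.

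In some genes with common peaks, the root lists held further peaks upstream of them. In the 9245 genes with a peak in all 4 lists, 7543 (81.6%) had the same number in each; 373 genes (4.03%) had more peaks in both root lists than in either shoot list, and 105 (1.14%) had fewer. Of the root-only sites 336 (26.6%), and of the shoot-only sites 121 (13.5%), shared a gene with a site of all 4 lists. Such root-only sites lay 5′ of it, along the gene's strand, in 316 of 336 cases (94.0%, 95% Wilson interval 91.0 to 96.1%). Shoot-only sites did so in 50 of 121 cases (41.3%, interval 32.9 to 50.2%). Sites seen in 1 list alone did so in 622 of 819 cases (75.9%). The same reading, with classes built inside each genotype, gave 82.8% for root-only against 61.7% for shoot-only sites within the FTO lists, and 77.2% against 54.4% within the FTOmut lists.

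3 named genes show the pattern. OsHK4 (LOC_Os03g50860), a cytokinin receptor kinase, had a common peak at chr3:29058266-29058566 (bounds of root replicate 1) with a fold of 67.5 and 45.3 in root and 38.2 and 93 in shoot, and upstream of it a root-only peak at chr3:29052598-29052788 with a fold of 20.3 and 39. OsPRR1 (LOC_Os02g40510), a pseudo-response regulator of the circadian clock, had its root-only upstream peak at chr2:24569783-24570223 with a fold of 47 and 30, stronger than its common peak, which was at 9.57 and 15.1 in root and 13.2 and 14.2 in shoot. OsSPX1 (LOC_Os06g40120), a phosphate sensor that holds back the phosphate starvation response, lies on the minus strand and had its root-only peak at chr6:23879306-23879686, 5′ of the common one, with a fold of 6.86 and 5.75. The upstream peak recurred for OsHK4 in 4 of 4 transgenic root and 2 of 4 transgenic shoot lists, for OsPRR1 in 3 and 1, and for OsSPX1 in 2 and 0.

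To set all lists on the same genes, peaks were counted around the 7845 sites that held 1 peak in each of the 12 lists, in 7698 genes. Upstream peaks per 1000 of these genes numbered 120 and 84.4 in wild-type root, against 26.6 and 52.4 in wild-type shoot. FTO plants had 69.6 and 122.6 in root, against 60.0 and 43.9 in shoot, and FTOmut plants 81.4 and 66.0 in root, against 37.5 and 50.5 in shoot. Every root list was above every shoot list, with a mean difference of 45.6 per 1000 genes over the 12 lists (exact permutation test within genotype, two-sided, p = 0.00926, the smallest it can give; 0.037 adjusted over 4 measures). Downstream peaks numbered 14.8 and 15.5 in wild-type root, against 20.0 and 21.6 in wild-type shoot, and the difference over the 12 lists did not pass (exact permutation p = 0.204). The measure was chosen after the wild-type pattern was seen. In the 8 transgenic lists alone the difference was 36.9 (exact permutation p = 0.0556, the smallest that design allows). Without wild-type shoot replicate 1 the difference was 41.3. A single wild-type shoot list and fewer arrangements are then left, so only the size is given.

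**Figure D3:**
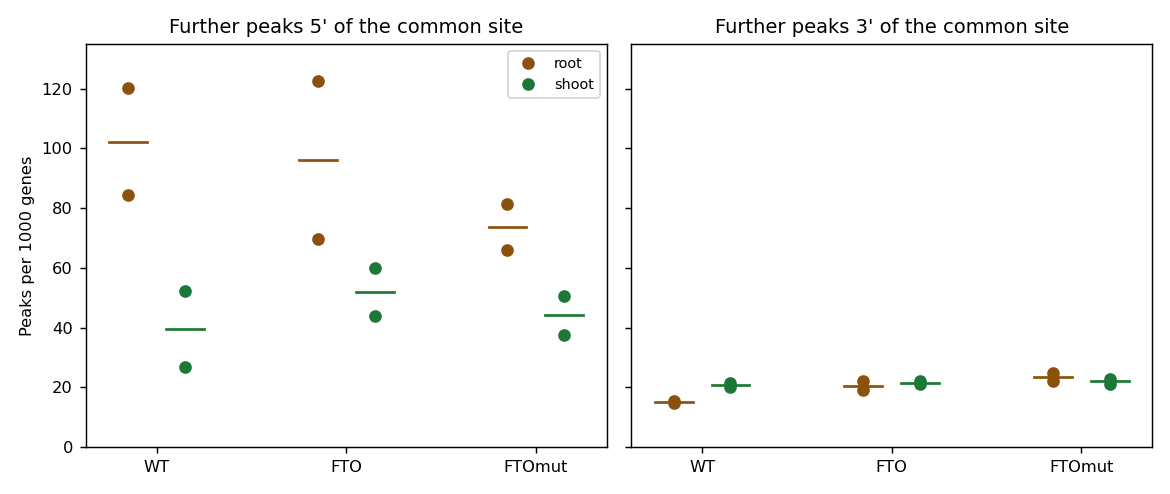
Peaks outside the site common to all 12 lists, per 1000 genes that hold such a site (y axis), by genotype, for root (brown, left of each pair) and shoot (green); each point is 1 list and each line a mean of 2. Upstream (left panel) the 6 root lists lie between 66.0 and 122.6 and the 6 shoot lists between 26.6 and 60.0; downstream (right panel) the ranges of the 6 root and the 6 shoot lists overlap.

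The genes with such upstream sites were expressed in both organs. Of the 310 genes with a root-only site upstream, 299 reached 1 CPM in all 4 RNA-seq libraries, and 14 of 307 tested were called higher and 15 lower in root. These shares (96.5% expressed, 4.56% higher, 4.89% lower) stood near those of all genes with a peak in all 4 lists (91.8%, 4.18% and 6.95%), from which these genes were chosen, so nothing particular to them is read from the counts. The upstream peaks had median folds of 15.9 and 11.85 in the root lists, against 39.6 and 42.85 for the strongest common peak of the same genes. Total peaks per list ranged from 14054 to 15999 in root and from 12963 to 14728 in shoot. The wild-type root lists held 14779 and 14054 peaks, with 120 and 84.4 upstream peaks per 1000 genes. Those of wild-type shoot held 12963 and 13941, with 26.6 and 52.4. In FTO plants and FTOmut root, too, the list with more peaks had more upstream peaks. FTOmut shoot went the other way (14557 and 14096 peaks, 37.5 and 50.5 upstream). The part that depth played was not tested. The 105 genes with fewer peaks in both root lists were of another kind, with a median length of 3880 bp and 41% of them at 1 CPM or more in all 4 libraries, against 2168 bp and 94.6% for the 373 genes with more.

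At shared peaks, the strength of enrichment was not shown to differ between the organs. At 9077 sites with exactly 1 peak in each list the median fold was 38 and 42.6 in root and 35 and 38 in shoot. After each list was centred on its median, no site passed limma's moderated test with Benjamini-Hochberg adjustment over all sites (0% called, smallest adjusted p 0.175). An unadjusted limma p under 0.05 was found at 831 sites (9.16%), 416 higher and 415 lower in root, a larger share than the 0.05 set by the threshold. With 2 lists against 2 and a median SE of 0.54 on the log2 scale, a missing call does not show equal folds. The log2 fold of the same site differed between replicates with an SD of 0.91 in root and 0.91 in shoot, and between organs with an SD of 1.01 to 1.03, so the scatter between organs was little wider than that between replicates. With both root lists above both shoot lists there were 2235 sites (24.6%) and below them 1413 (15.6%) as deposited; after centring, which by construction moves the counts towards balance, these were 1786 (19.7%) and 1866 (20.6%). Without centring, mean log2 fold at the sites common to all 12 lists differed, root minus shoot, by 0.15 in wild type, −0.00 in FTO plants and 0.23 in FTOmut plants, and the organ difference did not pass (exact permutation p = 0.0833, adjusted 0.111).

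**Figure D4:**
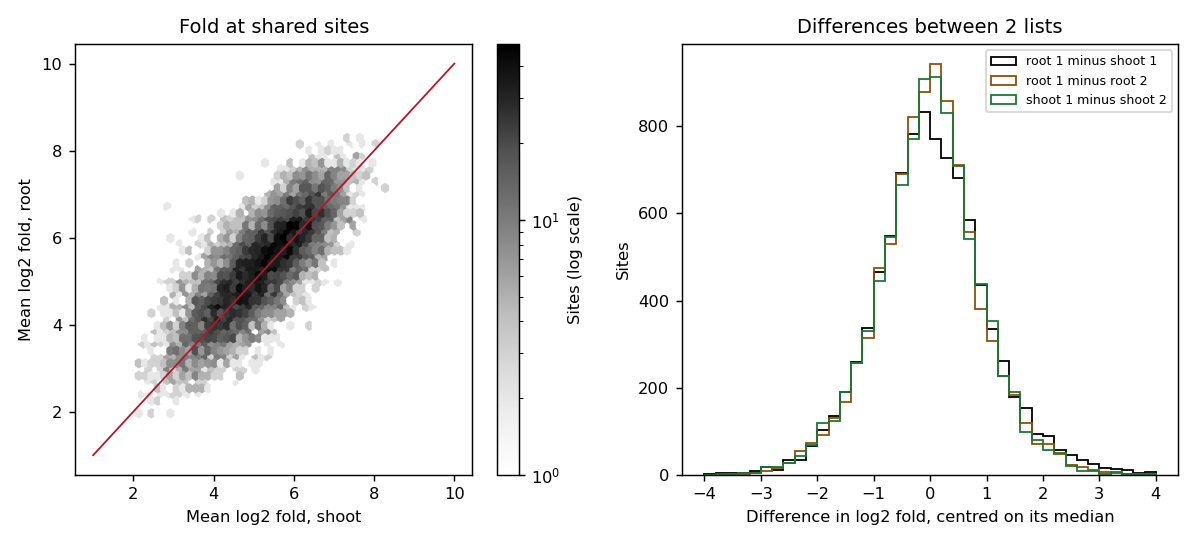
Left, mean log2 fold of the 2 root lists (y axis) against that of the 2 shoot lists (x axis) at 9077 shared sites, shaded by number of sites on a log scale, with the line of equality. Right, difference in log2 fold between 2 lists, centred on its median: root replicate 1 minus shoot replicate 1 (black), root replicate 1 minus 2 (brown), shoot replicate 1 minus 2 (green); the black curve is only slightly wider than the other two.

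Named genes show how far values spread at such sites; the examples were chosen after their values were seen. OsLHY, a morning transcription factor of the clock, had a fold of 100 and 181 in root and 70.8 and 70.5 in shoot, a centred log2 difference of 0.79 ± 0.51 (SE, limma adjusted p = 0.669). OsPRR37, a pseudo-response regulator that delays flowering in long days, had 77.9 and 102 in root and 41.4 and 53.4 in shoot. OsGSK2, a kinase that restrains brassinosteroid signalling, was on the other side with 15 and 22.1 in root and 40.5 and 36 in shoot (−1.21 ± 0.49 SE, limma adjusted p = 0.507). Over the 34 shared sites of named genes, both root lists were above both shoot lists at 11 (32.4%) and below them at 4 (11.8%) as deposited, beside 24.6% and 15.6% of all shared sites. After centring these were 6 (17.6%) and 8 (23.5%), beside 19.7% and 20.6%, and none of the 34 passed the test.

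Shared peaks were shorter in root by a narrow margin. Their median length was 260 and 261 bp in root and 270 and 270 bp in shoot. Both root peaks were shorter than both shoot peaks at 2555 sites (28.1%) and longer at 1029 (11.3%). Over the 12 lists, mean length at the common sites differed, root minus shoot, by −8.26 bp in wild type, −6.94 bp in FTO plants and 1.99 bp in FTOmut plants, and the organ difference did not pass (exact permutation p = 0.0556, adjusted 0.111). Among all peaks of a list, the number of peaks per gene was 1.20 and 1.16 for the root lists of the wild type, beside 1.13 and 1.16 for its shoot lists. None of 7 such summaries passed over the 12 lists (smallest exact permutation p = 0.0185 for mean length, adjusted 0.0972). The smallest p this test can give is 0.00926, so a single summary could not pass after adjustment over 7. A missing call here does not show equal organs.

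RNA levels went with organ-only methylation in part. Of all 23788 genes tested, 10% were called higher and 10.7% lower in root. Among the 716 tested genes methylated in root alone, 147 (20.5%) were higher and 38 (5.31%) lower in root, and the median log2 difference was 0.43, beside 0.02 over all genes. Among the 426 tested genes methylated in shoot alone, 28 (6.57%) were higher and 145 (34%) lower in root, with a median of −1.11. Of the genes methylated in all 4 lists, 4.18% were called higher and 6.95% lower; these shares are described, not tested.

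RNA of organ-only genes was present in both organs for a smaller share of them than over all methylated genes. Reaching 1 CPM in all 4 libraries, 78.3% of all genes with a peak and 91.8% of those methylated in all 4 lists were expressed in both organs, 69.2% and 82.5% with no RNA call. Of the 793 root-only genes, 418 (52.7%) reached 1 CPM in all 4 libraries and 351 (44.3%) did so with no RNA call; of the 612 shoot-only genes, 270 (44.1%) and 203 (33.2%) did. Median RNA of root-only genes was 6.36 and 6.06 CPM in root and 1.91 and 2.69 CPM in shoot, well under the 17.4 and 17.3 CPM in root and 14.8 and 12.5 CPM in shoot of genes methylated in all 4 lists. How far a low RNA level accounts for a missing peak was not tested. Counts of RNA calls leaned on single libraries: with 1 library left out, the share of root-only genes called higher was 7.28 to 46.2% and that of shoot-only genes called lower 12.0 to 56.9%, each above the share of all genes in the same fit.

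**Figure D5:**
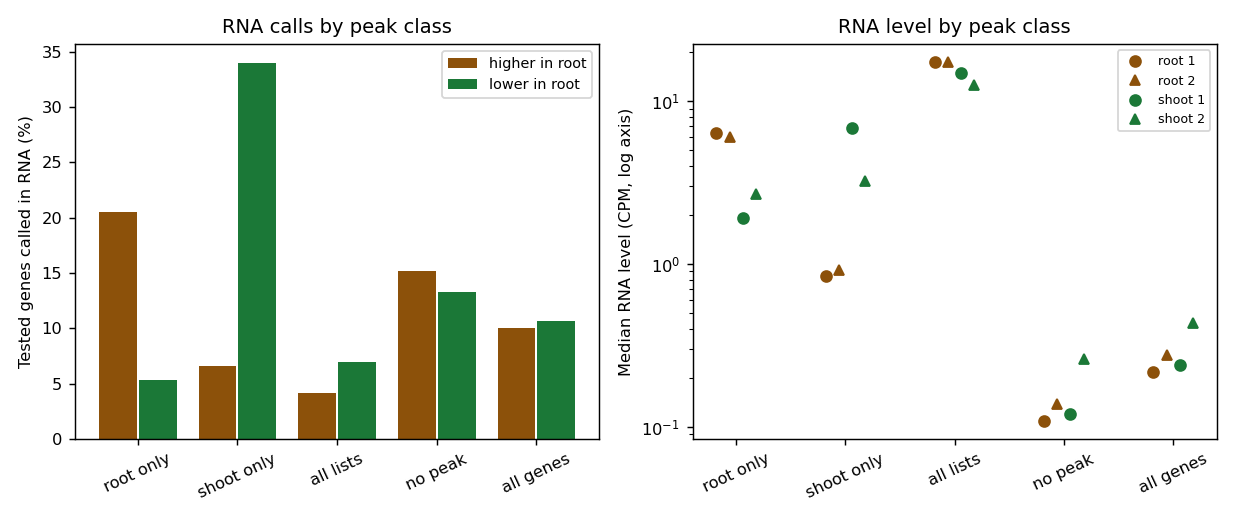
Left, share of tested genes called higher (brown) or lower (green) in root RNA, by peak class (y axis, %; edgeR, adjusted p under 0.05). Right, median RNA level of each class in each library (CPM, log axis; brown, root; green, shoot; circles, replicate 1; triangles, replicate 2). Root-only genes are called higher at 20.5% and shoot-only genes lower at 34%, beside 10% and 10.7% of all genes.

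Strong organ-only peaks in genes that both organs expressed were few. A fold of at least 50 in both lists of the organ was reached by 31 of the 1264 root-only and 19 of the 897 shoot-only sites. Of these, 21 (67.7%) and 8 (42.1%) lay in a gene with at least 1 CPM in both libraries of the other organ. Over all root-only genes 55% reached this in shoot, and over all shoot-only genes 46.6% in root. The first shares count sites and the second count genes, so they are not on the same footing. Of all root-only sites 825 of 1264 (65.3%) lay in a root-only gene. Of all shoot-only sites 628 of 897 (70.0%) lay in a shoot-only gene, and some strong sites also lay in genes of other classes. In single lists, 4.99 to 6.46% of root-only and 3.97 to 6.26% of shoot-only peaks reached 50, beside 31.8 to 41.3% at sites of all 4 lists. Most strong-site folds under 100 were whole numbers, for a reason not tested. LOC_Os01g40094, chosen after its values were seen, had a root-only peak with a fold of 136 and 106 and RNA at 16.7 and 16.1 CPM in root, against 87.9 and 57.7 CPM in shoot. LOC_Os12g40279, chosen likewise, had a shoot-only peak with a fold of 123 and 117, and RNA at 83.8 and 72.7 CPM in root and 106 and 72.5 CPM in shoot.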

How the data were processed

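Peaks were called per replicate by the authors with MeTPeak, as the names of the deposited lists say; poly(A) RNA was fragmented to about 100 nt and sequenced as 150 bp pairs, per the labels' protocols. The deposited lists give a fold (ratio of IP to input) and log10 of p and FDR for each peak. Of the deposited folds under 100, 46.7 to 49.6% were whole numbers in wild type (tolerance 1e-09). RNA reads were trimmed with cutadapt 1.15, aligned with HISAT2 2.1.0 and counted with Subread 1.6.4, per the submitters' processing notes; the genome build is not given in the sources used here. These deposited expected counts hold fractions and were rounded. Rows that name no rice locus were left out; ERCC spike-ins took 1.26 to 8.59% of counts. 8 columns of transgenic RNA libraries were not used. Peak lists over repeats were not used.

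Shared folds were tested on the log2 scale with limma 3.58.1 (robust, each list centred on its median) and RNA with edgeR 4.0.16 (TMM, filterByExpr, quasi-likelihood), adjusted over all features. DESeq2 1.42.0 was an alternative. Both models were also run on simulated data, with the same spread set for every gene or every site. The real shoot libraries differed widely from each other, so that run does not show how the models did here. Intervals cover counting error only. Members and gene groups were chosen with earlier results of these data known. Genes were named where their symbol was found once in a RefSeq gene table on the same chromosome and in matching order (155 of 262); strand could not be compared. By rule, up to 4 named genes per group with an organ-only peak are described, else the largest difference in peak number. Same-numbered replicates did not deviate together (correlation 0.01 for fold, 0.03 for RNA).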

Additional observations from a re-analysis of the deposited data

Results flagged for a closer look

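A peak on the hygromycin resistance gene (HygR), a selection marker of plant transformation and no rice locus, was listed in wild-type shoot replicate 2 with a fold of 4, a length of 120 bp and an FDR of 4.07e-06. It was the only row without a rice locus in the 12 lists, the transgenic lists included, and it drew attention because the wild type is untransformed. It entered no comparison. Its source was not tested.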

How the results depend on the processing

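Requiring a larger overlap (50% of the shorter peak), ignoring strand, and keeping only peaks with a fold of at least 2 (which removed none) or an FDR of at most 0.001 left each class of sites and genes within 1.5 times its size. With 1 list left out, root-only sites numbered 1613 to 3002 and shoot-only sites 1303 to 1942, root-only genes 1103 to 1672 and shoot-only genes 945 to 1131, since a class then rested on 3 lists instead of 4. The fold test at shared sites called 0 sites under each of 12 alternatives, the replicate block and each list left out included. On the 1509 sites with no whole-number fold, chosen after seeing the data, it called 1: LOC_Os03g07880, with a fold of 5.48 and 5.99 in root and 68.1 and 49.5 in shoot. The organ difference in upstream peaks was 39.6 to 51.5 per 1000 genes with 1 wild-type list left out. RNA calls were 2389 higher and 2540 lower in root; without a filter they were 5212 and 4000, with the replicate block 1866 and 2139, with DESeq2 2860 and 3380, without the chromosome 9 loci 2438 and 2619, and with 1 library left out 706 to 7096 and 493 to 6242. Differences near 0 in RNA changed sign: D14, a gene of strigolactone perception, was at 0.20 without a filter and −0.28 to 0.038 with 1 library left out, OsHK4 at 0.36 and −0.15 to 0.23, OsCESA1 at −0.38 to 0.80 and OsHsp101 at −0.92 to 0.10 with 1 library left out. The cause was not tested. The RNA calls of OsPIN10a (edgeR adjusted p 0.132 and 0.121 without root replicate 1 or 2) and OsPRR1 (0.446 and 0.540, and 0.0935 with the block) were lost. Without a shoot replicate, calls were gained for SLR1 (0.0140 and 0.0114 without replicate 1 or 2), OsCESA7 (0.0446 and 0.000198), OsCESA1 (0.00876 without replicate 1), and OsBZR1 and JMJ705 (0.00138 and 0.0309 without replicate 2). The depth of the m6A libraries is unknown, so a missing peak is not a missing mark.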

Other observations

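Other genes of the groups were methylated in an uneven way between lists. The Argonaute gene OsAGO18 had 2 peaks in each root list and in shoot replicate 2, and none in shoot replicate 1. The strigolactone receptor gene D14 had a peak with a fold of 20.1 and 79 in root and 6.31 in shoot replicate 2 alone, and the cell cycle kinase gene OsCDKA;2 one of 28 and 35 in root and 12 in shoot replicate 2 alone. The iron transporter gene OsIRT1 had a weak peak, 4.46 and 3.44 in root and 5 in shoot replicate 2, with RNA at 57.5 and 54.4 CPM in root and 0.358 and 0.434 CPM in shoot. The light receptor gene OsPHYB had one of 10 in root replicate 1 and 8.45 and 9.45 in shoot. The nitrate transporter gene OsNRT2.3 and the potassium transporter gene OsHAK1 had peaks in root replicate 1 alone, with folds of 7.93 and of 3.75 and 7.81.

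Genes with more peaks in both root lists were 2.16% of the 2316 shortest genes methylated in all lists and 4.89% of the 2311 longest, and those with fewer were 0.086% and 3.50%.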
